A study of Mus musculus with 2 samples.

Results

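MicroRNA (miRNA) genes known as markers of the liver, kidney and pancreas, organs that lie beside the adrenal gland, were measured in adrenal glands of newborn mice. The 9 genes were Mir122, Mir192, Mir194-1, Mir194-2, Mir215, Mir204, Mir216a, Mir216b and Mir217. They were chosen by name, through the GENCODE symbol of each row's Ensembl identifier, from 1973 miRNA gene rows. The adrenals came from B6NCrl mice at postnatal day 0, untreated as far as the labels say, and the RNA was restricted to fragments below 30 nucleotides. Each of the 2 libraries was made from the 2 adrenals of 1 pup of the same pregnancy, and the libraries, pup 2 and pup 1, form a single group. The labels give both the same donor identifier, so if that meant a single animal, the spread between them would be technical. Sex was not collected.

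A miRNA is cut from a hairpin precursor as a mature strand of about the length of the fragments kept here. Its seed, the bases from position 2 to position 8, pairs with target messenger RNAs and lowers their output. Some miRNAs are so concentrated in a cell type that they serve as its markers. miR-122 is the dominant miRNA of hepatocytes, where it acts on cholesterol and lipid metabolism. miR-192, miR-194 and miR-215 are known from the epithelium of kidney, gut and liver, and miR-204 from kidney tubules, the retinal pigment epithelium and the choroid plexus. miR-216a, miR-216b and miR-217 are known from the acinar cells of the pancreas.

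Levels are CPM, the same-strand count of a gene per 1000000 same-strand gene counts of its library, whose total was 3327743 in pup 2 and 1131762 in pup 1. A single count was therefore worth 0.3005 CPM in pup 2 and 0.8836 CPM in pup 1. Multi-mapped reads, 32.2% of all reads in pup 2 and 34.95% in pup 1, are not in any gene row. Because 1 read spans a whole mature miRNA, counts were not divided by length. Intervals are exact 95% Poisson, binomial or conditional intervals and cover counting error only, since amplified reads without molecular identifiers are not independent molecules. Chromaffin cells of the adrenal medulla are neuroendocrine. Of the islet and neuroendocrine list all 4 genes were at 10 CPM or more in both pups, against 275 of all 1973 rows (13.9%). From which cells the counts of these 4 genes came was not tested. The sum of these 4 genes was 33410.0 CPM in pup 2, against 39764.5 CPM in pup 1. Most of it was Mir375, with 30414.9 CPM in pup 2 and 37585.6 CPM in pup 1. Mir7-2 was also lower in pup 2, while Mir7-1 and Mir7b were higher.

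Mature sequences show which of these genes can be told apart by their reads. RefSeq sequences on GRCm38.p6, the assembly also called mm10, matched 8 of the 9 genes. In the lines that follow, capitals mark the seed and all sequences run 5′ to 3′. miR-192-5p and miR-215-5p come first because they share the seed UGACCUA although their hairpins lie on different chromosomes.
miR-192-5p: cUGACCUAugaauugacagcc
miR-215-5p: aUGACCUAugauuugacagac
These strands matched at 18 of 21 positions, and counted from the 5′ end of miR-192-5p the substitutions were C1A, A12U and C20A. No other mature miRNA of the RefSeq table carried this seed. Since the reads of either strand resemble the other, an exchange of reads between Mir192 and Mir215 was not tested. miR-204-5p is set beside miR-211-5p, the product of a paralogue in Trpm1, because they differ at 1 of 22 positions, A17U.
miR-204-5p: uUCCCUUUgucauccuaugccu
miR-211-5p: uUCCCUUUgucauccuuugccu
The pancreatic strands are shown to make plain that miR-216a-5p and miR-216b-5p do not share a seed. They differed at 4 of 22 positions, of which A8U lies in the seed.
miR-216a-5p: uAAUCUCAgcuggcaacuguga
miR-216b-5p: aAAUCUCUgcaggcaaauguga
miR-217-5p: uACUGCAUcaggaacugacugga

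Mir194-1 and Mir194-2 encode the same mature strand, miR-194-5p, with the seed GUAACAG. Their hairpins are printed because this decides what their counts can hold, and here capitals mark the longest stretch that the hairpins share.
Mir194-1: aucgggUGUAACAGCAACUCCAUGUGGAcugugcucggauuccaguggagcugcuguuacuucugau
Mir194-2: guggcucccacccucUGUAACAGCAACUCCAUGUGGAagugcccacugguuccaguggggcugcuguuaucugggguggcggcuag
The shared stretch was 22 bases long and was exactly miR-194-5p. Of 1005 RefSeq hairpins searched, these 2 held it. A read of exactly this strand fits both loci, so neither row counts it if it was treated as multi-mapped. The opposite arms, miR-194-1-3p and miR-194-2-3p, differed at 4 of 22 positions, so their reads can be placed. Which reads the Mir194 rows hold was not tested, since the deposited counts do not separate the arms.
miR-194-1-3p: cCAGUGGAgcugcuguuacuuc
miR-194-2-3p: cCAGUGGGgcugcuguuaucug

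A count in either pup was found for 8 of the 9 genes, while 635 of all 1973 rows (32.2%) had one. At 10 CPM or more in both pups were 5 of the 9, against 275 of all rows (13.9%). They were Mir122, Mir192, Mir204, Mir215 and Mir194-2. The panel as a whole took 0.444% of counts in pup 2 (0.436 to 0.451) and 0.327% in pup 1 (0.317 to 0.338). Mir122 alone gave 92.0% of the panel's counts in pup 2 and 91.0% in pup 1. No opposite-strand count fell on any of the 9 genes in either library.

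**Figure D1:**
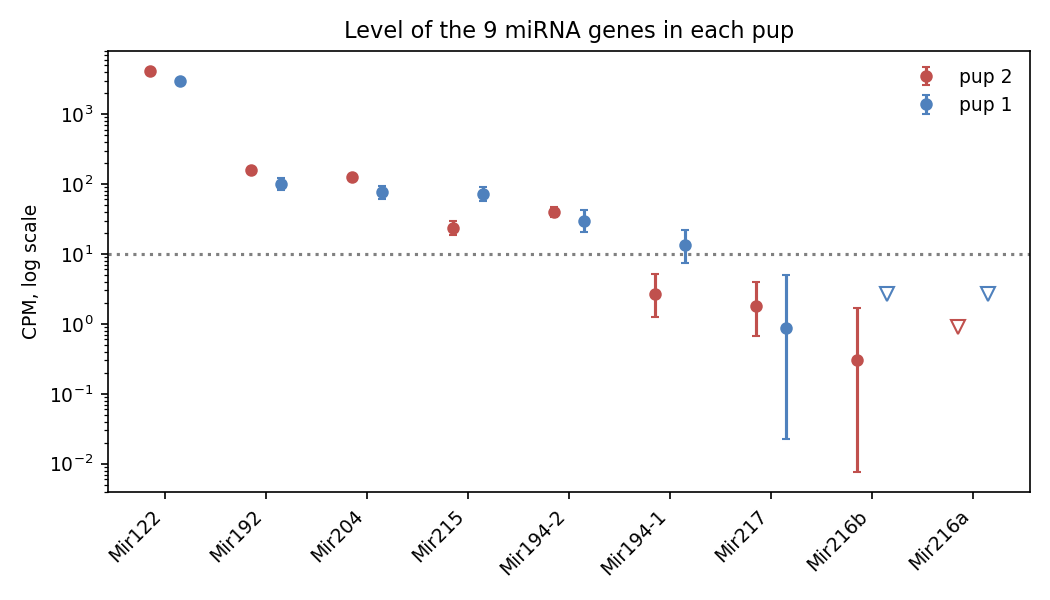
Level of each gene in CPM on a log axis, with pup 2 in red and pup 1 in blue. Bars are 95% Poisson intervals, open triangles mark a count of 0 at the floor of 3 counts, and the dotted line is 10 CPM. Mir122 lies at 4081 CPM in pup 2 and 2979 CPM in pup 1, Mir215 and Mir194-1 are lower in pup 2 than in pup 1, and the 3 pancreatic genes lie below the dotted line.

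The liver marker Mir122 was the most abundant of the 9 genes by a wide margin. It had 13579 counts in pup 2 and 3372 in pup 1. These are levels of 4081 CPM in pup 2 (4012 to 4150) and 2979 CPM in pup 1 (2880 to 3082), with a mean of 3530 ± 779 CPM (SD, n = 2). Its mean level ranked 43 among the 1973 rows, at 41 in pup 2 and 46 in pup 1. The count of Mir122 was 25.8 times that of Mir192 in pup 2 (23.6 to 28.2) and 29.6 times in pup 1 (24.5 to 36.0). The intervals of these ratios overlapped. On mm10, Mir122 (ENSMUSG00000065402.1) lies at chr18:65248861-65248926 on the plus strand, in an exon of the long noncoding RNA AC157910.3. In whole-gland RNA, fewer cells of a type and less RNA per cell cannot be told apart. From which cells of the dissected tissue these counts came was not tested.

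In the rows counted, the kidney and gut markers were present at low levels and split by genomic cluster. The Mir194 rows lack any multi-mapped reads of the mature strand they share, so their levels may be too low. Mir192 (ENSMUSG00000065523.1, chr19:6264844-6264932) and Mir194-2 (ENSMUSG00000065582.1, chr19:6264643-6264728) lie on the plus strand with 115 bases between their hairpins, outside any annotated host gene. Mir194-1 (ENSMUSG00000065581.1, chr1:185313319-185313385) and Mir215 (ENSMUSG00000065562.1, chr1:185313581-185313692) lie on the plus strand with 195 bases between them. Both are within the antisense transcript 2010103J01Rik, Mir215 in an exon and Mir194-1 in an intron, and opposite an intron of Iars2, the gene of a mitochondrial isoleucyl-tRNA synthetase.

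In the chromosome 19 cluster, both genes were higher in pup 2. Mir192 had 158 CPM in pup 2 (145 to 172) and 101 CPM in pup 1 (83.1 to 121), from 527 counts in pup 2 and 114 in pup 1. Mir194-2 had 40.0 CPM in pup 2 (33.5 to 47.4) and 30.0 CPM in pup 1 (20.8 to 42.0), from 133 counts in pup 2 and 34 in pup 1. The counting intervals of the pups overlapped for Mir194-2 and were apart for Mir192.

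In the chromosome 1 cluster, both genes were lower in pup 2. Mir215 had 23.7 CPM in pup 2 (18.8 to 29.6) and 72.5 CPM in pup 1 (57.6 to 89.9), from 79 counts in pup 2 and 82 in pup 1. Mir194-1 had 2.70 CPM in pup 2 (1.24 to 5.13) and 13.3 CPM in pup 1 (7.42 to 21.9), from 9 counts in pup 2 and 15 in pup 1. The intervals of the pups did not overlap for either gene, and pup 2 had fewer counts of both although its library was 2.94 times as deep.

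Mir204 (ENSMUSG00000065507.2, chr19:22750605-22750672, plus strand) lies in an intron of the ion channel gene Trpm3. It had 128 CPM in pup 2 (116 to 140.5) and 76.9 CPM in pup 1 (61.6 to 94.8), from 425 counts in pup 2 and 87 in pup 1. The counting intervals of the pups were apart. The Mir192 count was 1.24 times that of Mir204 in pup 2 (1.09 to 1.41) and 1.31 times in pup 1 (0.983 to 1.75). The paralogue Mir211, in an intron of the melanocyte-associated gene Trpm1 at chr7:64205806-64205911, had 5 counts in pup 2 and 1 in pup 1. The Mir204 count was 85.0 times that of Mir211 in pup 2 (36.1 to 263) and 87.0 times in pup 1 (15.2 to 3475). The one other RefSeq miRNA with this seed, miR-7670-3p, comes from Mir7670, which had 4 counts in pup 2 and 0 in pup 1. Of the gene counts of these 3 genes with the seed UCCCUUU, nearly all were thus those of Mir204.

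The pancreatic genes were at or near 0. Mir217 (chr11:28763728-28763835) had 6 counts in pup 2 and 1 in pup 1, which is 1.80 CPM in pup 2 (0.662 to 3.92) and 0.884 CPM in pup 1 (0.0224 to 4.92). The ratio of 2.04 (0.248 to 93.9) sets no direction. Mir216b (chr11:28746191-28746276) had 1 count in pup 2 and 0 in pup 1, and Mir216a (chr11:28757012-28757083) had 0 in both. By the floor of 3 counts, a gene at 0 could still have had 0.902 CPM in pup 2 or 2.65 CPM in pup 1. Mir216a was thus not detectable at this depth. All 3 lie on the plus strand. Mir216a and Mir217 are in introns of the long noncoding RNA Gm12082, and Mir216b overlaps Mir216c on the opposite strand.

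**Figure D2:**
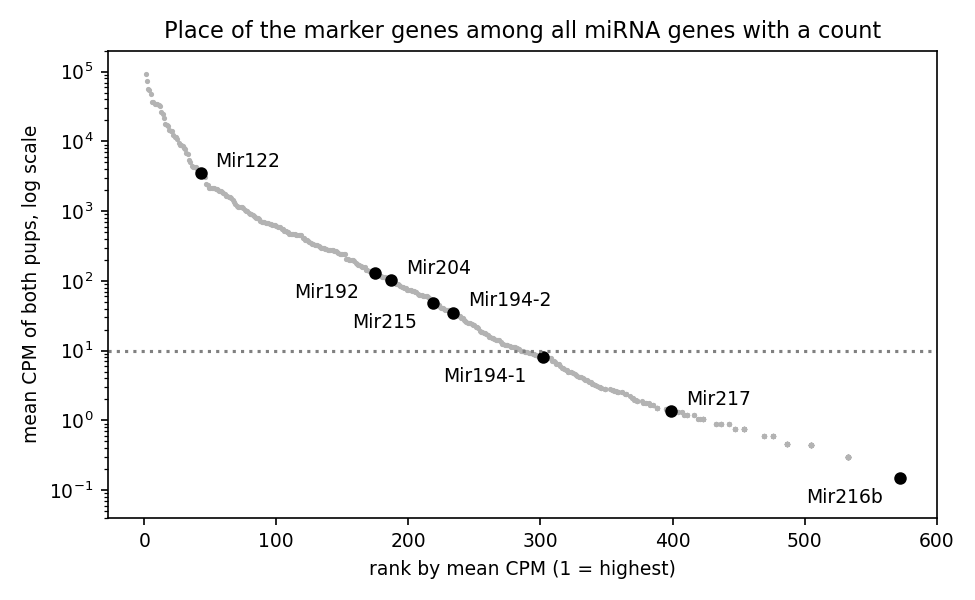
Mean CPM of both pups on a log axis against rank for all miRNA genes with a count, in grey, with the marker genes in black. Mir122 sits at rank 43, the kidney and gut markers between 175 and 302, Mir217 at 399 and Mir216b at 572, and Mir216a had no count.

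By mean level the order was Mir122, Mir192, Mir204, Mir215, Mir194-2, Mir194-1, Mir217, Mir216b and Mir216a. The places of the Mir194 genes do not include any multi-mapped reads of the mature strand they share. Means were 3530 ± 779 CPM for Mir122, 129.5 ± 40.8 for Mir192, 102 ± 36.0 for Mir204, 48.1 ± 34.5 for Mir215 and 35.0 ± 7.02 for Mir194-2 (SD, n = 2). Mir194-1 had 7.98 ± 7.46 CPM and Mir217 had 1.34 ± 0.650 CPM. The ranges over the pups overlapped for Mir192 and Mir204, although Mir192 had the higher count within each pup and the interval of their ratio lay above 1 in pup 2. They also overlapped for Mir215 and Mir194-2 and for Mir216b and Mir216a. Mir204 and Mir215 had separate ranges over the pups, but in pup 1 their counting intervals overlapped, where Mir204 had 87 counts and Mir215 had 82. The place of Mir215 depended on the pup: it ranked 248 of all rows in pup 2, below Mir194-2 at 228, and 203 in pup 1, above Mir194-2 at 234.

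The pups were compared by log2 ratios of pup 2 over pup 1, with 1 CPM added to each level, among the 284 genes whose mean reached 10 CPM. With 1 library per pup there is no test, and the threshold was a 2-fold difference. Of the 5 markers in that set, 4 were higher in pup 2 and 1 lower, where 165 of all 284 genes (58.1%) were higher in pup 2. Their median log2 ratio was 0.45, beside 0.08 over all 284 genes, whose quartiles were -0.22 and 0.36. Past 2-fold was 1 of the 5, Mir215, against 15 of 284 (5.28%), of which 10 (3.52%) were higher and 5 (1.76%) were lower in pup 2.

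**Figure D3:**
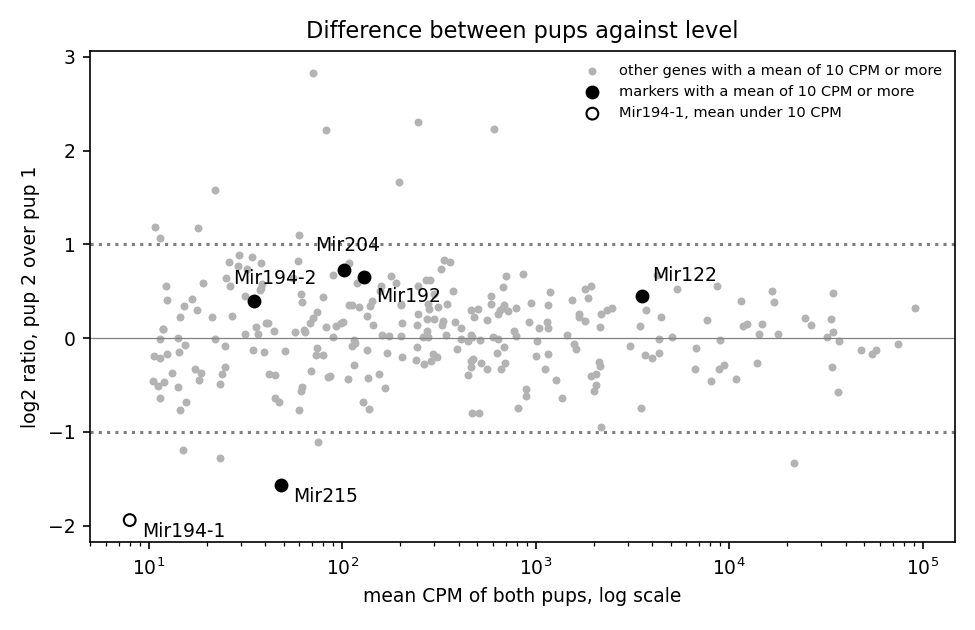
Log2 ratio of pup 2 over pup 1 against mean CPM on a log axis for the 284 genes whose mean reached 10 CPM, with dotted lines at a 2-fold difference. Mir204, Mir192, Mir122 and Mir194-2 lie between 0.40 and 0.73, Mir215 at -1.57 is the lowest of the 284, and Mir194-1, with a mean of 7.98 CPM, is drawn as an open circle at -1.94.

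Mir215 had the lowest log2 ratio of the 284 genes, -1.57, ahead of Mirlet7b at -1.33. Its level in pup 2 was 0.328 times that in pup 1 (0.237 to 0.452). Mir194-1, its neighbour, was outside the set because of its mean, and its ratio of 0.204 (0.0787 to 0.498) rested on 9 counts in pup 2 and 15 in pup 1. Mir192 was 1.57-fold higher in pup 2 (1.28 to 1.94), Mir204 1.66-fold (1.32 to 2.12), Mir122 1.37-fold (1.32 to 1.42) and Mir194-2 1.33-fold (0.907 to 2.00). The interval of Mir194-2 includes no change.

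Within a library the depth cancels, so ratios between genes compare the pups without any scaling. The Mir192 count was 6.67 times the Mir215 count in pup 2 (5.26 to 8.56) and 1.39 times in pup 1 (1.04 to 1.87). This ratio was 4.79 times as large in pup 2 as in pup 1 (3.26 to 7.06). The Mir194 genes shifted likewise, with Mir194-2 at 14.8 times Mir194-1 in pup 2 (7.55 to 33.0) and 2.27 times in pup 1 (1.20 to 4.48). Taken by cluster, the chromosome 19 genes had 7.50 times the counts of the chromosome 1 genes in pup 2 (5.997 to 9.48) and 1.53 times in pup 1 (1.17 to 1.99). Ratios with a Mir194 gene leave out any multi-mapped reads of the mature strand that both Mir194 genes encode.

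For hairpins of the same cluster, no such shift was detectable at these counts. Mir192 had 3.96 times the counts of Mir194-2 in pup 2 (3.27 to 4.83) and 3.35 times in pup 1 (2.27 to 5.07), a shift of 1.18 times (0.746 to 1.84). Mir215 had 8.78 times the counts of Mir194-1 in pup 2 (4.40 to 19.9) and 5.47 times in pup 1 (3.13 to 10.2), a shift of 1.60 times (0.615 to 4.41). These ratios would be too high if reads of the mature strand shared by the Mir194 genes were treated as multi-mapped. The log2 ratios of the neighbours differed by 0.25 for Mir192 minus Mir194-2 and by 0.37 for Mir215 minus Mir194-1. Over the 98 adjacent same-strand pairs within 10 kb whose genes both had a mean of 10 CPM or more, the median absolute difference was 0.40. Mir194-1 was below that limit, and its difference from Mir215 depended on the CPM added. With 0.1 CPM added, the log2 ratio was -1.61 for Mir215 and -2.25 for Mir194-1. With 5 CPM added, it was -1.43 for Mir215 and -1.24 for Mir194-1. Mir192 and Mir215, which share a seed but no locus, differed by 2.22. The 98 pairs are no background for this value, because they hold adjacent genes only, and pairs on different chromosomes were not compared. Mir215 also had the lowest log2 ratio of the 284 genes.

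**Figure D4:**
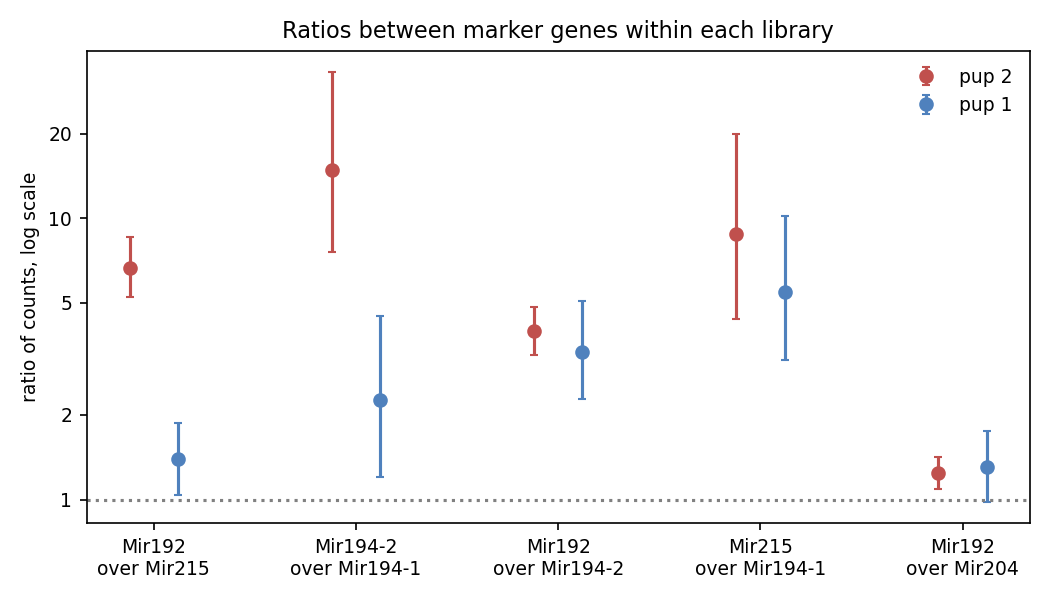
Ratio of the counts of pairs of genes within each library on a log axis, pup 2 in red and pup 1 in blue, with exact 95% binomial intervals. The intervals of the pups are apart for Mir192 over Mir215 and for Mir194-2 over Mir194-1, which lie in different clusters, and overlap for both pairs within a cluster and for Mir192 over Mir204.

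Summed over the seed they share, Mir192 and Mir215 had an interval of the ratio that includes no change. Together they had 182 CPM in pup 2 and 173 CPM in pup 1, a ratio of 1.05 (0.894 to 1.24). All 4 kidney and gut genes summed to 225 CPM in pup 2, against 216 CPM in pup 1, a ratio of 1.04 (0.898 to 1.20). The chromosome 19 cluster was 1.52-fold higher in pup 2 (1.27 to 1.82) and the chromosome 1 cluster was at 0.308 of its pup 1 level (0.229 to 0.416). The sum of the kidney and gut genes and both cluster levels leave out any multi-mapped reads of the mature strand that the Mir194 genes share. How many such reads there were was not tested.

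Other miRNAs associated with the same organs gave a mixed picture. Over all 284 genes, 58.1% were higher in pup 2 and the median log2 ratio was 0.08. Of 5 further liver-associated genes analysed, 4 had a mean of 10 CPM or more, all 4 were higher in pup 2 and none passed 2-fold, with a median log2 ratio of 0.38. Mir101b led with 864 CPM in pup 2 and 544 CPM in pup 1, followed by Mir148a with 662 CPM in pup 2 and 513 CPM in pup 1. Mir101a had 163 CPM in pup 2 and 124 CPM in pup 1. Mir802, known from liver and pancreas, had 3 counts in pup 2 and 0 in pup 1. The further kidney list had 11 of 13 genes at that level, 8 higher and 3 lower in pup 2, with a median of 0.16. It was led by Mir10a, Mir10b and Mir30e, which many tissues express. Mir10a had 73018.9 CPM in pup 2 and 75963.0 CPM in pup 1, and Mir10b had 35220.6 CPM in pup 2 and 33670.5 CPM in pup 1. Mir30e had 13131.1 CPM in pup 2 and 9938 CPM in pup 1.

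In that kidney list, 3 of the 11 genes passed 2-fold, 2 higher in pup 2 and 1 lower, against 15 of all 284 genes (5.28%). The higher ones were the epithelial miRNAs Mir200b, with 136 CPM in pup 2 and 28.3 CPM in pup 1, and Mir429, with 299.6 CPM in pup 2, against 93.7 CPM in pup 1. The lower one was Mir30c-1, with 46.9 CPM in pup 2, against 102.5 CPM in pup 1. Multi-mapped reads are in no row, and whether Mir30c-1 shares a mature strand with another gene was not examined. These 3 genes past 2-fold were named after their values were seen. All 5 genes of the epithelial Mir200 family had a higher level in pup 2, with a sum of 597 CPM in pup 2 and 214 CPM in pup 1. A mean of 10 CPM or more was reached by 3 of them, all higher in pup 2, against 165 of all 284 genes (58.1%). Mir200a and Mir141 had lower means, and the ratio's interval included no change for Mir200a (0.721 to 3.91) and Mir141 (0.955 to 5.63). Mir200b and Mir429 were thus higher in pup 2 where Mir215 was lower, and their part in the differences of the markers was not tested.

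The further pancreas list held abundant genes despite the near absence of the acinar markers. Of its 6 genes 5 had a mean of 10 CPM or more, 3 higher and 2 lower in pup 2, none past 2-fold, with a median of 0.37. Mir375, a miRNA of islets and other neuroendocrine cells, had 30414.9 CPM in pup 2 and 37585.6 CPM in pup 1. Mir7b, also neuroendocrine, had 2293 CPM in pup 2 and 1557 CPM in pup 1. Mir148a, already given, was the third.

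Markers of blood and muscle were read in the same libraries. The 3 erythroid genes summed to 337 CPM in pup 2, against 339 CPM in pup 1, mostly from Mir451a at a ratio of 1.01 (0.882 to 1.15). The others parted, Mir144 at 1.89 times its pup 1 level (1.21 to 3.09) and Mir486 at 0.618 times (0.454 to 0.848). The 2 leukocyte genes summed to 958 CPM in pup 2, against 803 CPM in pup 1, with Mir223 at 1.25 times its pup 1 level (1.16 to 1.36) and Mir150 at 0.753 times. The 6 striated muscle genes had a sum of 415 CPM in pup 2 and 84.8 CPM in pup 1. Most of it came from Mir206, with 411 CPM in pup 2 and 82.2 CPM in pup 1. Mir133a-1, Mir133a-2 and Mir1a-1 were at 0 in both. A count of 0 here does not show absence. Multi-mapped reads are in no gene row, and strands shared between these genes were not examined. Mir133b had 4 counts in pup 2 and 0 in pup 1, and Mir1b had 8 counts in pup 2 and 3 in pup 1, or 2.40 CPM in pup 2, against 2.65 CPM in pup 1. In the rows counted, most of the difference in the muscle sum was thus that of Mir206. The part of Mir206 in the differences of the markers was not tested. Mir126a, the endothelial marker, had 102287.6 CPM in pup 2 and 81620.5 CPM in pup 1.

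Genes most like each marker were those whose log2 level, with 1 CPM added, lay nearest in both libraries, the larger of the 2 absolute differences being the measure. For Mir122 these were Mir17 and Mir423, both at 0.17. For Mir192 they were Mir148b at 0.13 and Mir221 at 0.21, for Mir204 Mir200c at 0.11 and Mir874 at 0.21, and for Mir194-2 Mir212 at 0.15 and Mir31 at 0.17. Mir215 had no near match. Its nearest genes were Mir760 at 0.54, with 34.9 CPM in pup 2 and 54.8 CPM in pup 1, and Mir486 at 0.58, with 36.1 CPM in pup 2 and 58.3 CPM in pup 1.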

How the data were processed

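For each library the authors deposited a table of unscaled counts of reads per miRNA gene, with unstranded, same-strand and opposite-strand columns. The build was mm10 and the annotation GENCODE M4, per the notes deposited with each table. For the aligner, nothing is stated in the sources used here. Rows that name no gene (multi-mapped, unmapped, no feature) held 47.3% of the reads of pup 2 and 49.6% of those of pup 1 and were left out. Symbols, positions and host genes came from GENCODE M21, which annotates the same build. All 9 RefSeq hairpins compared, those of 8 markers and Mir211, had the same coordinates. Mir122 had no RefSeq sequence here, so its coordinates were not compared.

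CPM, log2 ratios and intervals were computed with Python 3.11.15 and SciPy 1.17.1. Alternative scaling used edgeR 4.0.16 and DESeq2 1.42.0, without any test, since each pup is 1 library. The libraries were counted as 2 because the labels name separate pups, and their counts were not those of 1 library deposited again (chi-square over degrees of freedom 82.1), which does not show that they came from separate animals. Genes, lists and thresholds were chosen with earlier results of these data known. Named by rule were the 9 genes, the 2 genes nearest in level to each marker with a mean of 10 CPM or more, and the 3 most abundant genes of each organ list. Other genes were named outside this rule. Mirlet7b, Mir30c-1, Mir200b and Mir429 were named for their ratios, and Mir211 and Mir7670 for their seed. Mir802 and genes of the neuroendocrine, Mir200 family, blood, muscle and endothelial lists were named as well. Mir378a, Mir142 and Mir1a-2 of the lists were not analysed here.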

Additional observations from a re-analysis of the deposited data

How the results depend on the processing

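The number of markers at 10 CPM or more in both pups stayed at 5 with TMM or DESeq2 scaling, the unstranded column, all reads as the denominator or a limit of 5 CPM. It was 2 at 100 CPM, and 5 to 6 with either pup left out. TMM factors raise a log2 ratio by 0.11 and DESeq2 size factors by 0.03 before 1 CPM is added, and by less for low genes after it. Under both, 4 markers were higher and Mir215 lower in pup 2. Without a filter on low counts, 85 of 635 genes (13.4%) passed 2-fold, as did 2 of 8 markers, Mir215 and Mir194-1. At a mean of 100 CPM, 4 of 188 genes (2.13%) and 0 of 3 markers passed, since Mir215 has too low a mean. With all reads as the denominator the mean of Mir122 was 1826 CPM. Mir194-1 and the pancreatic genes are limited by depth, and both Mir194 rows also by any miR-194-5p reads treated as multi-mapped. No paired analysis was possible because the series holds a single group.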
